A study of Mus musculus with 12 samples.

Results

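The comparison set 3 arrays of day 15 against 3 arrays of day 4 in a differentiation course of the mouse embryonic stem cell line W9.5, and used every gene that was detected on all 3 arrays of at least 1 of the 2 days (detection p under 0.05). That rule held for 8896 of the 9657 genes tested in the series. Of these, 7569 were detected on every array of both days, 912 in full on day 15 only and 415 in full on day 4 only. The series holds 12 BeadChip arrays, 3 each on days 0, 4, 8 and 15, and the day 8 arrays were used to tell lasting changes from passing ones. All 12 samples, day 0 included, carry the same treatment label, which names activin A, retinoic acid, and retinoic acid with a fibroblast growth factor in sequence, toward pancreatic progenitors. No label says on which days an agent was present. All arrays come from 1 cell line with no genetic change named. Whether the replicates came from different cultures is not labelled, so p-values measure only the spread between these arrays. In bulk RNA, fewer cells of a type and less RNA per cell cannot be told apart.

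Mouse embryonic stem cells first pass from a naive state to a primed state like the epiblast, the tissue of the early embryo that forms the body, and then give up pluripotency as they take on germ layer identities. Nodal and activin signalling holds the epiblast state and also starts endoderm, while retinoic acid patterns the gut tube and neural tissue. The early embryo makes endoderm along several routes: visceral endoderm, which absorbs and secretes like the later liver, parietal endoderm, which lays down a thick basement membrane, and definitive endoderm, from which pancreas, liver and stomach arise.

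The labelled end point was set against its markers. Pdx1, Ptf1a, Nkx6-1, Neurog3 and Mnx1, transcription factors that define pancreatic progenitors, were detected on 0 of the 3 day 15 arrays and 0 of the 3 day 4 arrays, and Pdx1 on 1 day 8 array. Sox9, which those progenitors share with many other epithelia, had log2 levels of 8.37, 8.67 and 8.73 on day 15, against 6.09, 6.43 and 6.14 on day 4. Albumin (Alb), the plasma protein of hepatocytes, and Kdr, a receptor of endothelial precursors, were at 0 detected arrays on both days. Non-detection does not show absence, because a probe may fail to report. Probes of Ccnb2 and Kif11, cell cycle genes, and of Sdha, an oxidative phosphorylation gene, were also at 0 detected arrays on both days. The cells are therefore called by their day of culture.

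The number of detected probes averaged 12401 ± 139 on day 15 and 11797 ± 512 on day 4 (SD, n = 3 each), a difference of 603 that did not pass an exact permutation test (two-sided p = 0.2, where 3 against 3 arrays cannot give less than 0.1). Arrays of 1 day correlated across genes with r between 0.987 and 0.993, and day 15 with day 4 arrays with r between 0.884 and 0.895. No array stood apart from its day. At the edge of the detection rule, Csnk1g1 and Nap1l3 were just inside, with a highest detection p of 0.0499 on their better day, and Barx1 and Borcs5 just outside at 0.0511; the mean levels of these 4 genes lay between 4.90 and 5.31 on both days.

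Most detected genes differed between day 15 and day 4. Of 8896 genes, 5743 passed the test (limma, Benjamini-Hochberg adjusted p under 0.05 over all 9657 tested genes), 2865 higher and 2878 lower on day 15, a share of 64.6%. Over all tested genes the share called was 60.7%, with 30.1% higher and 30.6% lower. Among the 7569 genes detected in full on both days, 4756 (62.8%) were called, 2206 higher and 2550 lower. The median gene moved by -0.06 on the log2 scale. All 3 day 15 arrays lay above all 3 day 4 arrays for 2961 genes and below them for 3072, and the arrays overlapped for 2863; over all tested genes 64.2% did not overlap.

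A difference of at least 2-fold was seen in 1389 higher and 1144 lower genes (26.3% of all tested genes were so called, both directions together), of at least 4-fold in 403 and 181, of at least 8-fold in 133 and 39, and of at least 16-fold in 43 and 8. By the authors' log2 values 947 were higher and 670 lower by at least 2-fold. Genes that only 1 day detected entered through the day on which they are bright. Among the genes detected in full on both days, 1001 rises and 971 falls reached 2-fold, and 257 rises and 141 falls reached 4-fold.

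Each gene was then followed through day 8, when 5151 of the 8896 were called against day 4. Over all 9657 tested genes 5323 (55.1%) were so called. A change was called kept where day 8 and day 15 both differed from day 4 in the same direction, late where day 15 differed and day 8 did not, returned where a day 8 change was called back and day 15 no longer differed, and crossed where day 8 and day 15 lay on opposite sides of day 4. These classes are descriptions, because their 3 contrasts share arrays. Kept changes made up 4363 of the 8896 genes (49.0%), 2162 higher and 2201 lower. Late changes numbered 632 higher and 639 lower. Returned genes numbered 297, 181 after a rise and 116 after a fall, and for 153 of them (101 and 52) the 95% interval of day 15 minus day 4 lay within 0.5 of 0. Another 109 crossed, 38 that were higher on day 8 and 71 that were lower. A further 382 were called on day 8 but had neither a call on day 15 against day 4 nor a called return, and 2474 had no call against day 4.

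**Figure D1:**
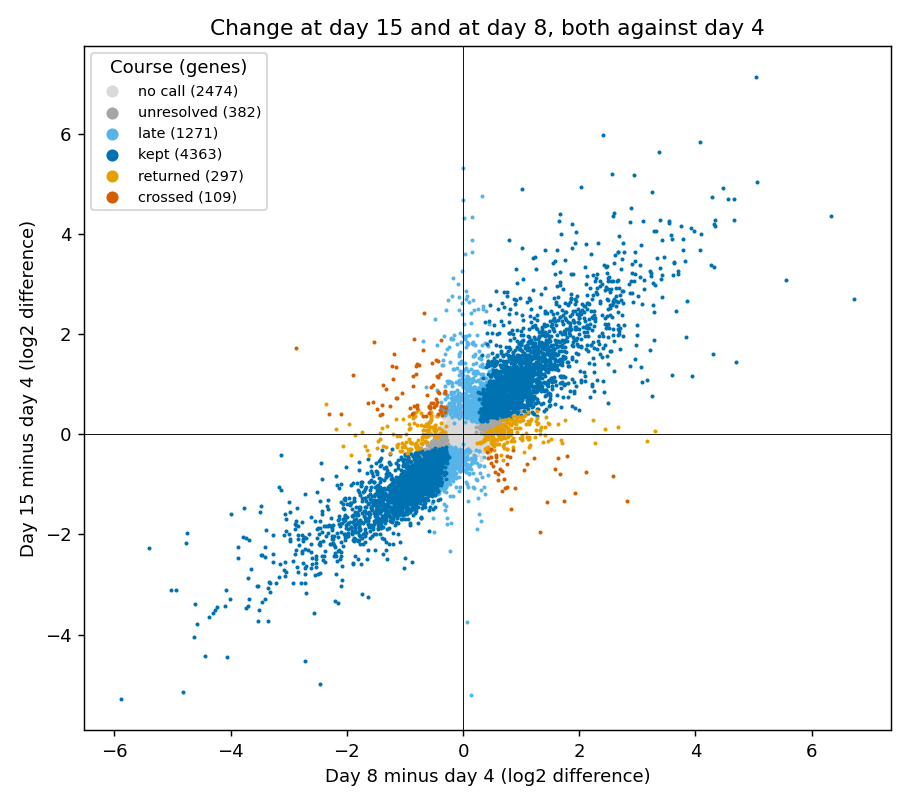
Each point is 1 of the 8896 detected genes, with its log2 difference of day 8 minus day 4 on the horizontal axis and of day 15 minus day 4 on the vertical axis, coloured by course. The 4363 kept genes fill the upper right and lower left, the 1271 late genes form a band near 0 on the horizontal axis, and the 297 returned genes lie near 0 on the vertical axis. The axes share the day 4 arrays.

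Larger day 8 changes were kept in a larger share of genes. Of 2605 genes called higher on day 8 than on day 4 (28.1% of tested genes were so called), 83.0% were kept, and of the 1081 that were at least 2-fold higher 94.1% were kept and 4.44% returned. Of 2546 genes called lower (27% of tested genes were so called), 86.4% were kept, and of the 910 at least 2-fold lower 94.1% were kept and 3.63% returned. Large falls came part way back more often than large rises: at 4-fold or more, 100 of 220 kept falls and 66 of 268 kept rises did so. At 8-fold, 73 of 75 genes that had risen were kept and 22 of them came part way back. All 68 genes that had fallen were kept and 45 of them came part way back. The median of these 68 was -3.52 at day 8 and -2.79 at day 15. The day 8 arrays set both the size and the course, so these shares are descriptions.

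**Figure D2:**
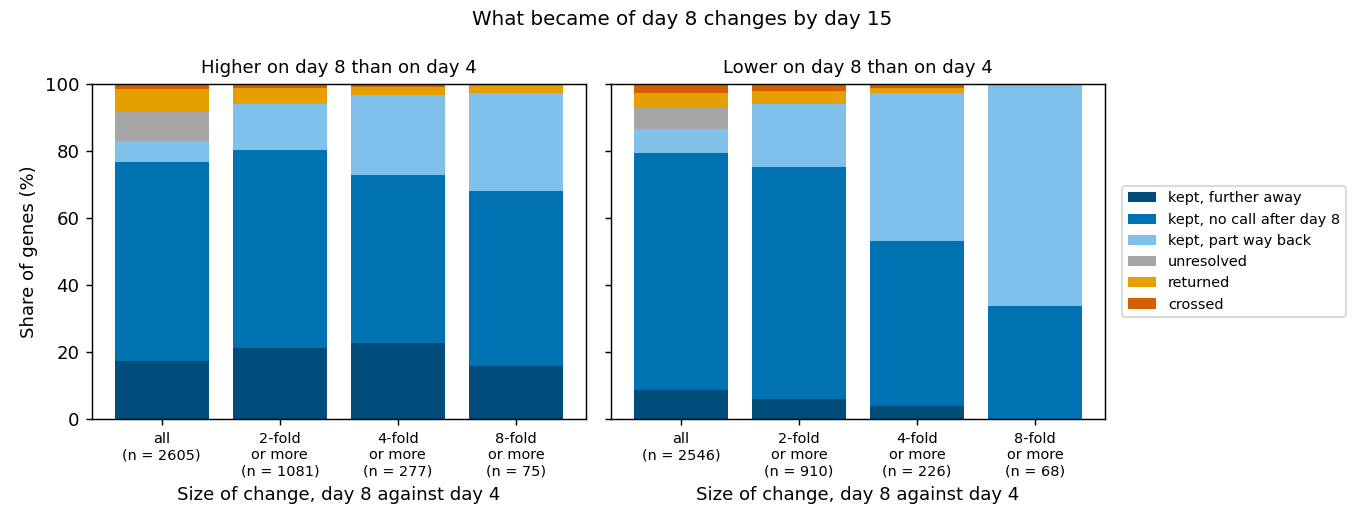
Stacked bars give the share (%) of genes in each course class, for genes called higher (left) or lower (right) on day 8 than on day 4, at rising minimum size of the day 8 change; n is the number of genes. Kept genes make up 83.0% and 86.4% of all calls and 94.1% on both sides at 2-fold or more, and the part that came part of the way back is wider among large falls (45 of 68 at 8-fold).

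The largest rise was that of Myl3, a myosin light chain of ventricular heart and slow skeletal muscle. Its log2 level was 11.98, 11.51 and 11.80 on day 15, against 4.72, 4.55 and 4.64 on day 4, where it was detected on no array. It was at least 94.8-fold higher (fitted log2 difference 7.13 ± 0.17 SE, limma adjusted p = 7.32e-15), and day 8 lay between at 9.99, 9.48 and 9.55. Wfdc1, a secreted protein with a protease inhibitor fold, was at least 43.6-fold higher, also with no detection on day 4. Igfbp5 and Igfbp1, secreted proteins that bind insulin-like growth factors, rose together: Igfbp5 had 12.76, 13.01 and 12.95 on day 15, against 6.65, 7.37 and 7.17 on day 4 (57.3-fold), and Igfbp1 was at least 24.8-fold higher. Igf2, the growth factor they bind, stood at 14.79, 14.81 and 14.81 on day 15, against 11.27, 11.11 and 11.12 on day 4. For each of these genes every day 15 array lay far above every day 4 array. The log2 difference of Igf2 was 3.64 ± 0.09 (SE, limma adjusted p = 7.32e-15).

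The rest of the 15 largest rises came from several tissues. Gdf9, a growth factor known from oocytes, was 49.96-fold higher, with 11.51, 11.19 and 11.31 on day 15, against 5.44, 5.98 and 5.67 on day 4. Krt14 and Krt15, keratins of the basal layer of stratified epithelia, were detected on no array of day 4 or day 8 and were at least 25.6-fold and 16.3-fold higher on day 15. Clps, the colipase that pancreatic lipase needs, was at least 23.4-fold higher and stood on day 15 where it had been on day 8 (difference -0.03). Of 12 detected pancreatic enzyme and duct genes, however, 5 were higher and 5 lower, with a median of -0.07. Among the 6 detected in full on both days 1 was higher and 4 were lower. Probes of Amy1, Cpa1, Prss1 and Prss2, further genes of that list, were detected on no array of day 15 or day 4. Ctsj, a cathepsin of the placenta, was at least 22.2-fold higher, and Mgst2, a glutathione transferase of membranes, at least 25.02-fold. Nr2f1, a nuclear receptor of the nervous system and other tissues, rose 30.5-fold, Hs3st1, an enzyme that sulfates heparan sulfate, 30.0-fold, and Dlk1, an imprinted membrane protein of precursor cells, 28.4-fold. Socs3, a feedback inhibitor of cytokine signalling through STAT3, and Flt1, a receptor of vascular endothelial growth factor, rose 26.5-fold and 26.0-fold. Of these 15 genes, 10 were above day 4 on day 8 and moved further after it. Clps, Socs3 and Flt1 had no call between day 15 and day 8, and Krt14 and Krt15 were late.

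Among the 15 largest falls, 4 were genes of the nodal pathway and 2 were late. Lefty2 and Lefty1 encode secreted inhibitors that nodal signalling switches on against itself. Lefty2 had log2 levels of 6.11, 6.19 and 6.03 on day 15, against 11.40, 11.31 and 11.49 on day 4 (39.1-fold lower, log2 difference -5.29 ± 0.14 SE, limma adjusted p = 1.28e-14). Lefty1 was 35.6-fold lower. Amn, a membrane partner of the cubilin uptake receptor in visceral endoderm and kidney, had 6.12, 5.97 and 6.33 on day 15, against 11.32, 11.50 and 11.18 on day 4, while day 8 still held 11.60, 11.29 and 11.51. Day 15 lay apart from both earlier days for Amn, and the whole fall of 5.20 on the log2 scale came after day 8. Tdgf1, a co-receptor that nodal requires, fell 16.6-fold, and Nodal itself 11.9-fold by its brightest probe (log2 difference -3.58) and by -1.41 on a second probe.

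Growth factors and transcription factors of the epiblast made up much of the remainder. Fgf5, the usual marker of the primed epiblast, stepped down at each stage: the log2 levels were 10.47, 10.63 and 10.40 on day 4, then 7.99, 7.75 and 8.35 on day 8, then 5.84, 5.24 and 5.45 on day 15. Fgf15 did the same and ended 22.99-fold lower. Otx2, a homeodomain factor of the epiblast and forebrain, fell 13.3-fold, Tcf15, a basic helix-loop-helix factor of the early epiblast, 21.4-fold, and Utf1, a chromatin protein of pluripotent cells, 11.8-fold. Cbr3, a carbonyl reductase, fell 21.97-fold, Pla2g10, a secreted phospholipase, 12.6-fold, Rbpms2, an RNA-binding protein, 13.3-fold, and Zfp819, a zinc finger protein, 13.8-fold. Tfec, a transcription factor related to Mitf, fell 13.4-fold and only after day 8, with detection on 2 of 3 day 15 arrays.

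**Figure D3:**
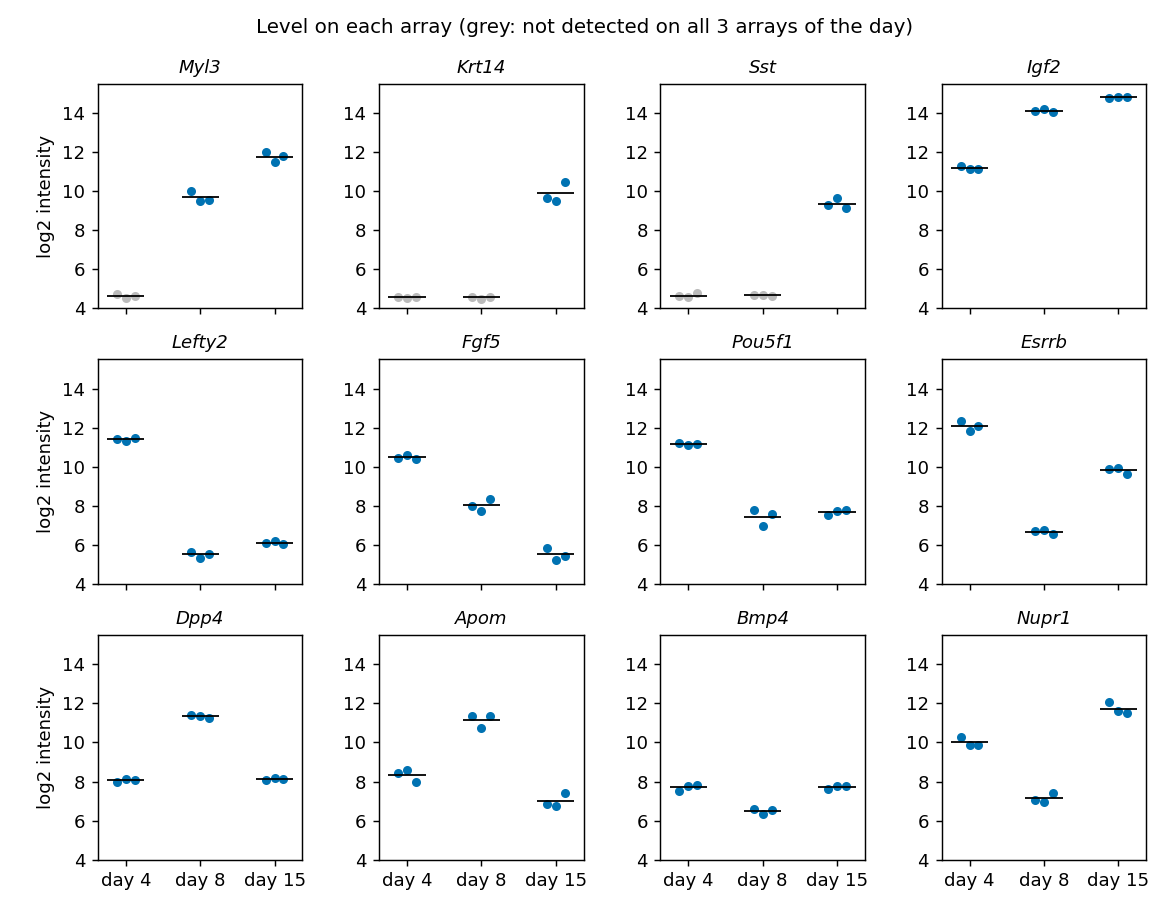
Log2 intensity of 12 genes on each of the 3 arrays of days 4, 8 and 15; the bar is the mean of 3 arrays, and grey points mark days on which the probe was not detected on all 3 arrays. Myl3 and Igf2 rose by day 8 and stayed up, Krt14 and Sst appeared by day 15, Lefty2, Fgf5, Pou5f1 and Esrrb fell, Dpp4 and Bmp4 came back to their day 4 level, and Apom and Nupr1 crossed it.

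The exit from pluripotency was kept, but part of the naive network rose again after day 8. Of 25 detected core and naive pluripotency genes, 20 were lower and 3 higher on day 15 (median -2.19, against -0.06 for all detected genes); 22 were detected in full on both days, and 18 of those were lower. Pou5f1, the factor without which pluripotency cannot be held, had 7.54, 7.72 and 7.81 on day 15, against 11.21, 11.09 and 11.19 on day 4, with no call between day 15 and day 8. Dppa2, Dppa4, Gdf3, Dnmt3l, Eras, Nr0b1, Fgf4, Mybl2 and Tdgf1 were likewise low with no call after day 8, with log2 differences from -2.19 for Fgf4 to -4.05 for Tdgf1 on day 15. Fgf4, a growth factor of the naive epiblast, was detected on no day 15 array and was at least 3.37-fold lower, and Nr0b1 was detected on 1 of 3.

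The median of day 15 minus day 8 over the 25 genes was 0.39, and 8 of them came part way back. Esrrb, an orphan nuclear receptor of the naive state, gives the clearest case: the log2 levels were 12.36, 11.82 and 12.11 on day 4, then 6.73, 6.77 and 6.55 on day 8, then 9.88, 9.96 and 9.64 on day 15. The 3 days did not overlap, and the day 15 level remained 4.81-fold below day 4 (limma adjusted p = 6.05e-10). Klf2, a Kruppel-like factor of the same network, stood at -4.78 on day 8 and -2.17 on day 15, both as log2 differences from day 4. Zfp42 (Rex1), an ES cell marker, stood at -3.86 and -2.47, Sox2, the partner of Pou5f1 and also a factor of neural and foregut cells, at -2.87 and -1.81. Nanog, at -1.75 on day 8, was 2.01-fold below day 4 on day 15. Nr5a2, Utf1 and Tfcp2l1 were the other 3 genes that moved part way back.

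Not all members fell. Klf4, a Kruppel-like factor of ES cells that epithelia use too, was 7.25-fold higher, with 12.13, 11.98 and 11.97 on day 15, against 9.08, 9.26 and 9.17 on day 4. Klf5 was higher by 0.40 on the log2 scale, and Dppa3, which was detected on no day 4 array, was at least 1.33-fold higher. Sall4 (-0.35) and Tet2 (-0.37) were not called. Tbx3 and Lin28a were above day 4 on day 8 and below it on day 15, at -0.89 and -0.91.

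Primed epiblast genes fell too. Of 9 detected genes 8 were lower on day 15 and 1 was higher, with a median of -2.42. Beside Fgf5, Tcf15 and Otx2, the falls were those of Pou3f1 (-2.59), a POU factor of primed cells and neural tissue, Grhl2 (-2.42), a factor of epithelial junctions, Dnmt3b (-2.39), a de novo DNA methyltransferase, Lef1 (-2.03, detected on no day 15 array and at least 2.79-fold lower), a factor at the end of the WNT pathway, and Sall2 (-1.10). Sox11, a factor of neural progenitors, was 0.47 higher. Fgf5 and Dnmt3b fell again after day 8, Pou3f1 came part way back, and the other 5 lower genes had no further call.

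Most cell cycle genes were lower. Of 38 detected cell cycle and replication genes, all detected in full on both days, 34 were lower and 2 higher on day 15, with a median of -1.30 against -0.06 for all detected genes. Of the 34 lower genes, 18 fell further after day 8, 11 were kept with no call after day 8, 4 were late and 1, Cdk2, had been higher on day 8; the median was -0.71 for day 8 minus day 4 and -0.56 for day 15 minus day 8. Ccne1, the cyclin that takes cells into S phase, had 7.27, 7.26 and 6.64 on day 15, against 10.39, 9.99 and 9.89 on day 4 (8.21-fold lower, log2 difference -3.04 ± 0.18 SE). Rrm2, the subunit of ribonucleotide reductase that varies through the cycle, fell 4.54-fold, with 7.94, 8.02 and 8.33 on day 15, against 10.27, 10.23 and 10.33 on day 4. The arrays of the 2 days did not overlap for either gene. Ccnf fell by 2.08 on the log2 scale. Ccnd2, a D-type cyclin, went the other way and was 2.63 higher, and Cdk4, its kinase, 0.92 higher. Cdkn1c, an imprinted inhibitor of cyclin-dependent kinases, was 3.42 higher, the largest rise on a list of p53 and cell cycle inhibitor genes. Of the 20 detected genes of that list 6 were higher and 8 lower, with a median of -0.19.

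Many promoters of genes expressed late in the cycle carry CCAAT boxes, which the factor NF-Y binds, and a cell cycle homology region. The promoters of Cdc20, an activator of the anaphase-promoting complex, and of Cdk1, the kinase of mitosis, are shown because both genes fell at each step and both windows hold both motifs. Cdc20 had 9.82, 9.69 and 9.95 on day 15, against 11.48, 11.19 and 11.46 on day 4, and Cdk1 had 8.67, 9.14 and 9.15 on day 15, against 10.11, 10.43 and 10.45 on day 4. The sequences are RefSeq's, build GRCm38.p6, 250 bases before to 50 bases after the start site, 5′ to 3′ on the strand of the gene: chr4:118437294-118437593 on the minus strand for Cdc20 and chr10:69352863-69353162 on the minus strand for Cdk1. Capitals mark CCAAT and TTTGAA on either strand.
Cdc20: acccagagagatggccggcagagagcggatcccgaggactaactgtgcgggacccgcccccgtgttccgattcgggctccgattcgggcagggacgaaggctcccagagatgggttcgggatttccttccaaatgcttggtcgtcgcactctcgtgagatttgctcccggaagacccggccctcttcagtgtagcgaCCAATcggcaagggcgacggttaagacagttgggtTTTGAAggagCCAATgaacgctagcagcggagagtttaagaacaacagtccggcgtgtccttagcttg
Cdk1: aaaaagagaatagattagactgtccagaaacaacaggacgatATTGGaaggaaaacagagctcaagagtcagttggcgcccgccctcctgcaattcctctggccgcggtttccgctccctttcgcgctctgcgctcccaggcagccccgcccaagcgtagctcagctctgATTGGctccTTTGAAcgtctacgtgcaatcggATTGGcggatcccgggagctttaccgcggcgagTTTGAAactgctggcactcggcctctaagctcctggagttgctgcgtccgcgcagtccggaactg
Among 34 promoters of the list (29 of its 38 detected genes matched), 55.9% held CCAAT and 29.4% held TTTGAA, against 37.8% and 12% of 9235 promoters of detected genes and 37.4% and 17.9% of all 32851 promoters. CCAAT was also held by 55.6% of 18 promoters of the amino acid shortage list described below. The CCAAT share was therefore not particular to the cell cycle list. A match is only a description of these letters in this window.

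About as many oxidative phosphorylation genes were lower as were not called. Of 51 detected genes 26 were lower, 0 higher and 25 not called, with a median of -0.35, where 32.4% of all detected genes were lower and 32.2% higher. At an unadjusted limma p under 0.05 the counts were 0 higher and 29 lower, and with replicate number as a block 2 genes were called higher. Cyc1, cytochrome c1 of complex III, fell the most, with 10.76, 10.67 and 10.38 on day 15, against 11.52, 11.72 and 11.91 on day 4 (2.16-fold), followed by Cox7a2, Cox5a and Atp5g1 at -0.98, -0.86 and -0.83. None of the 51 returned. Of 10 detected DNA methylation genes 8 were lower and 0 higher (also 8 and 0 at an unadjusted limma p under 0.05), with a median of -1.23: Dnmt3l (-3.28), the cofactor of de novo methylation, Dnmt3b (-2.39), Zfp57 (-1.67), which guards imprints, and Gadd45a (-1.47) led, and Trim28, Uhrf1, Dnmt1 and Mbd3 fell by 1.31, 1.15, 0.96 and 0.88. Mbd1 and Tet2 were not called.

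Matrix genes of parietal endoderm and the basement membrane rose by day 8 and stayed up. Of 22 detected genes 19 were higher and 0 lower (also 19 and 0 at an unadjusted limma p under 0.05), with a median of 2.68 on day 15 and 2.58 on day 8, both against day 4. Of 21 detected in full on both days 18 were higher. Nid1, a linker of basement membranes, had 11.86, 11.79 and 11.31 on day 15, against 7.14, 7.24 and 7.30 on day 4 (21.5-fold), and Thbd, thrombomodulin, a surface receptor that parietal endoderm carries, had 11.65, 11.43 and 11.42 on day 15, against 6.95, 7.20 and 7.26 on day 4 (20.6-fold). Pth1r, the parathyroid hormone receptor, rose 19.4-fold and Pdgfra, a growth factor receptor of primitive endoderm and mesenchyme, by 3.90. The chains of type IV collagen, Col4a1 and Col4a2, rose by 3.09 and 2.65, those of laminin, Lama1, Lamb1 and Lamc1, by 3.25, 2.93 and 2.70, and Sparc, which binds collagen, by 2.63. Agrn, Sox7 and Hspg2 were above day 4 on day 8 and back by day 15. The other genes were Plat (3.69), P4ha2 (3.46), Fst (3.22), Serpinh1 (2.31), Gata6 (2.07), Lamb2 (1.24), Srgn (0.92), Snai1 (0.66, detected on no day 4 array) and Podxl (0.44), all higher.

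Visceral endoderm and liver genes took another course. Of 16 detected visceral endoderm genes 15 were higher on day 8 than on day 4; by day 15 no gene was kept without a fall back, 6 were kept part way, 6 had returned, 3 had crossed below day 4, and Amn had fallen late. The median was 2.38 for day 8 minus day 4, and 0.14 for day 15 minus day 4. Of the 16, 11 were detected in full on both day 15 and day 4, and of those 2 were higher and 4 lower on day 15. Afp, the main plasma protein of yolk sac and fetal liver, was detected on no day 4 array and had 11.52, 11.01 and 11.33 on day 8 and 8.84, 8.87 and 10.24 on day 15. Ttr, which carries thyroid hormone and retinol-binding protein, had 10.22, 10.05 and 9.94 on day 4, then 14.06, 13.73 and 13.96, then 12.18, 11.70 and 12.19. Both genes lay between the other days on day 15, without overlap. Ihh, Slc39a8, Cited1 and Dab2 were the other genes kept part way, at 1.88, 1.40, 1.35 and 0.50 above day 4. The returned genes were Dpp4, Hnf4a, Apoa1, Apob, Cpn1 and Pla2g12b, with day 15 minus day 4 between -0.17 and 0.28, and those that crossed were Emb, Lgals2 and Mttp.

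The liver and plasma protein list shares Afp, Ttr, Apoa1, Apob and Mttp with that list. Of its 14 detected genes 6 were higher and 5 lower on day 15, with a median of -0.08, where the median for day 8 minus day 4 had been 2.54. F2, prothrombin, was kept at 3.44 above day 4, while Apoa2, an apolipoprotein of high-density lipoprotein, stood at 6.73 on day 8 and 2.70 on day 15. Apoe, Apom and Apoc1, apolipoproteins, and Mttp, which loads lipid onto apolipoprotein B, ended 2.55-fold, 2.52-fold, 2.83-fold and 2.27-fold below day 4. Whether the share of such cells or their RNA changed was not tested.

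**Figure D4:**
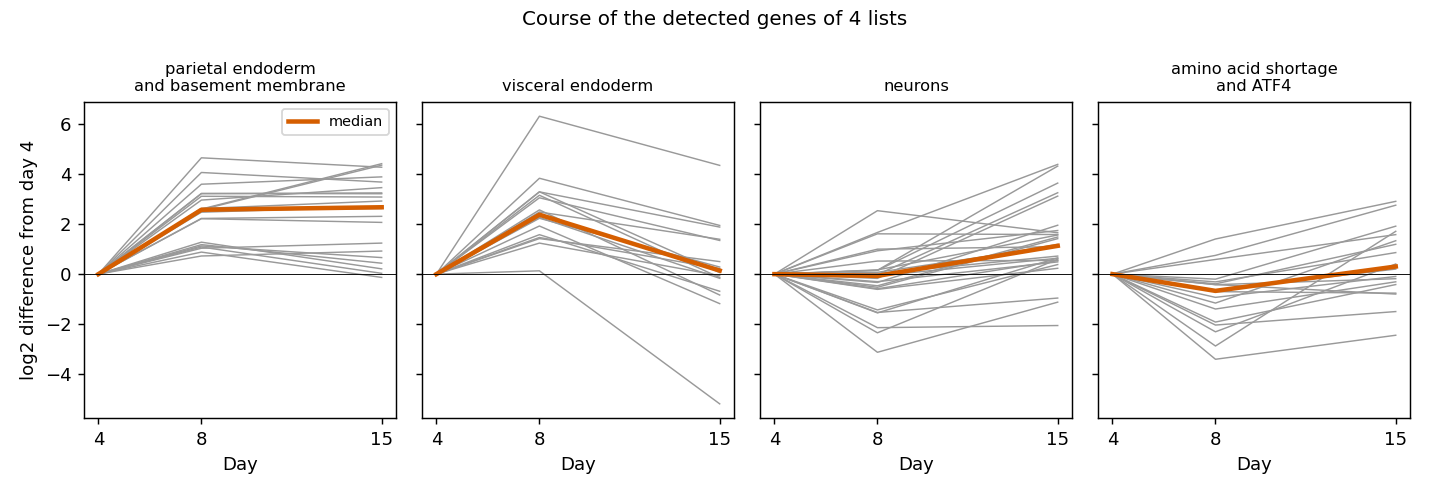
Log2 difference from day 4 on days 8 and 15 for the detected genes of 4 lists (grey lines, 1 per gene) with their median (orange). The parietal endoderm median holds at 2.58 and 2.68, the visceral endoderm median goes to 2.38 and back to 0.14, the neuron median stays at -0.07 and then reaches 1.13, and the amino acid shortage median dips to -0.67 and then reaches 0.30.

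Endoderm transcription factors were mostly kept. Of 15 detected factors 11 were higher and 1 lower, with a median of 1.45, and of the 12 detected in full on both days 8 were higher. Sox17, required for definitive and primitive endoderm, had 12.04, 12.14 and 12.13 on day 15, against 8.83, 9.02 and 8.93 on day 4 (9.06-fold) and no call after day 8. Sox9, Foxa2 and Gata6 were higher by 2.37, 2.17 and 2.07. Hnf4a and Sox7 returned, and Hhex, a homeobox factor of liver, thyroid and anterior endoderm, was late and lower, with 6.19, 6.07 and 6.41 on day 15, against 8.26, 8.09 and 7.97 on day 4. Of 12 detected factors of pancreatic progenitors and endocrine cells 9 were higher and 2 lower, Neurod1 by -1.07 and Nr5a2 by -1.60. Of these 12, 5 were detected in full on day 15 only, and of the 7 detected in full on both days 4 were higher and 2 lower; Myt1 and Insm1, factors of endocrine and neural cells, were late and at least 4.81-fold and 2.45-fold higher, and Rfx6, a factor of gut and endocrine endoderm, was detected on no day 4 array, was at least 14.1-fold above it on day 8 and at least 2.16-fold above it on day 15.

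Among detected genes, 3 stomach genes rose in steps and 4 hormone and granule genes rose late. The array held 15 genes of the stomach list, of which Atp4a, Anxa10, Vsig1 and Ctse were detected on no array of day 15 or day 4. Of 7 detected stomach genes 5 were higher and 1 lower, with a median of 1.01 for day 8 minus day 4 and 1.06 for day 15 minus day 8. Gkn2 and Gkn1, gastrokines secreted by the stomach lining, were both higher: Gkn2 had 14.50, 14.30 and 14.22 on day 15, against 10.01, 10.19 and 10.04 on day 4 (19.2-fold), and Gkn1 14.64, 14.59 and 14.55, against 10.94, 11.01 and 10.70 (13.1-fold). Both moved further after day 8, as did Pga5, a pepsinogen (2.18). Tff1, a trefoil peptide of the stomach, was lower on day 8 and 1.90 higher on day 15. Sst, the hormone somatostatin of endocrine and nerve cells, was detected on no array of day 4 or day 8 and had 9.27, 9.64 and 9.11 on day 15, at least 17.6-fold above day 4 (limma adjusted p = 1.36e-13). Of 6 detected hormone and granule genes 4 were higher, all 4 of them late, among them Scg5 (1.77) and Cpe (1.04), which process prohormones. Of the 6, 3 were detected in full on day 15 only. The array held 20 genes of that list, and Ppy, Ghrl, Iapp, Chga and Pcsk1 were detected on no array of day 15 or day 4.

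Retinoic acid genes rose. Of 15 detected genes 13 were higher and 1 lower, with a median of 2.11, and all 8 detected in full on both days were higher. Crabp1, which binds retinoic acid in the cytosol, had 11.37, 11.64 and 11.52 on day 15, against 7.51, 7.77 and 7.60 on day 4 (14.7-fold), and most of that came after day 8, at 8.53, 8.24 and 8.48. Meis1 and Meis2, homeodomain partners of Hox proteins, rose 19.2-fold and by 3.63 on the log2 scale, and Cyp26b1, which breaks retinoic acid down, 12.8-fold. Moving further after day 8 was called for 5 of the genes and moving part way back for 3, including Rarb, a retinoic acid receptor. Rarg, another receptor, was detected on no day 15 array and was at least 2.02-fold lower. Of 15 detected Hox genes 9 were higher and 0 lower (also 9 and 0 at an unadjusted limma p under 0.05), but only 9 of the 15 were detected in full on both days, and 4 of those were higher. Hoxb2, Hoxb5 and Hoxc9 were higher by 2.99, 1.98 and 1.78 on the log2 scale, and Hoxa5, undetected on day 4, was at least 2.90-fold higher.

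Late rises included genes of several differentiated tissues. Of 632 late rises 410 were detected in full on both days, and of the 34 that reached 4-fold 7 were. Of 27 detected neuron genes 22 were higher and 3 lower, with a median of 1.13. Of the 27, 14 were detected in full on day 15 only, and of the 12 detected in full on both days 8 were higher and 2 lower. Map2, Nefl and Ncam1, among the 35 neuron genes on the array, were detected on no array of day 15 or day 4. Dcx, a microtubule protein of young neurons, had 8.99, 8.95 and 8.53 on day 15 and was detected on no array of day 4 or day 8, at least 12.3-fold higher. Nefm, a neurofilament, was at least 8.54-fold higher, and Slc17a6, a glutamate transporter, at least 7.93-fold. Gap43, a growth cone protein, was 4.40 higher on the log2 scale and was already 1.67 above day 4 on day 8. Rufy3, a protein of neuronal polarity, had 8.72, 8.92 and 8.88 on day 15, against 5.36, 5.34 and 5.02 on day 4, where 2 of 3 arrays detected it.

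Part of the placental list rose too. The array held 39 of its 44 genes. Among these, Elf5, Hand1, Ascl2, Tpbpa and Tpbpb were detected on no array of days 4, 8 and 15. Of 16 detected placenta and trophoblast genes 15 were higher and 0 lower (also 15 and 0 at an unadjusted limma p under 0.05), with a median of 1.92, but 9 of the 16 were detected in full on day 15 only; all 6 detected in full on both days were higher. Prl2a1, a hormone of the prolactin family, had 9.08, 8.82 and 8.84 on day 15 and no detection on day 4 or day 8, at least 13.1-fold higher. Ctsj, Krt7 (3.60), a keratin of trophoblast and duct epithelium, and Rhox6 (3.34), a homeobox gene, led with it and moved further after day 8, and 7 genes were late. Rhox6 was detected on 1 of 3 day 4 arrays. The prolactin, Rhox and cathepsin families hold close copies, and a probe may take signal from more than 1 of them.

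Muscle, connective tissue and epithelial genes rose late in part. Acta1, skeletal muscle actin, had 11.94, 11.87 and 12.23 on day 15, against 8.35, 7.99 and 8.09 on day 4 (14.7-fold), with day 8 at 8.51, 8.09 and 8.27, beside day 4. Of 15 detected heart and skeletal muscle genes 11 were higher and 3 lower, 5 of them late, and of the 9 detected in full on both days 5 were higher and 3 lower. The array held 34 genes of that list, and Myh6, Myl2, Nkx2-5, Myod1, Myog and Ckm were detected on no array of day 15 or day 4. Nppb, a natriuretic peptide undetected on day 4, was at least 9.08-fold higher, and Tnnc1, a troponin, was 3.38 higher on the log2 scale, both by day 8. Of 13 detected smooth muscle genes 9 were higher and 0 lower (also 9 and 0 at an unadjusted limma p under 0.05), led by Actg2 (2.48), Csrp1 (1.86), Tpm1 (1.65) and Myocd, which was at least 2.43-fold higher. Cnn1, Myh11 and Des, the 3 smooth muscle genes on the array outside those 13, were detected on no array of day 15 or day 4. Of 32 detected mesenchyme genes 23 were higher and 5 lower, 10 of them late (17 and 4 of the 25 detected in full on both days), with Col3a1, a fibrillar collagen, 2.63 higher after a day 8 level like that of day 4 (-0.01). Of 14 detected stratified epithelium genes 8 were higher and 0 lower (also 8 and 0 at an unadjusted limma p under 0.05), but of the 9 detected in full on both days 3 were higher. The array held 28 genes of that list. Krt5 was detected on 2 of 3 day 15 arrays, and Krt1, Krt16, Dsg3, Dsc3 and Ivl on no array of day 15 or day 4. After Krt14 and Krt15 came Lor (3.37), a protein of the skin barrier, and Trp63, the master factor of such epithelia, which was at least 4.24-fold higher; both were above day 4 on day 8.

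Fewer late falls were large: 3 of 639 reached 4-fold, against 34 of 632 late rises. Of those 34 rises 7 were detected in full on both days, and the others entered through day 15, where they are bright. The detection rule therefore bears on this contrast. After Amn and Tfec came Gas6, a ligand of the TAM receptors that clear dying cells, with 7.39, 6.88 and 7.39 on day 15, against 9.77, 9.44 and 9.46 on day 4 (5.04-fold lower). Pla1a, a phospholipase, Gstm1, a glutathione transferase, and Slc40a1, the iron exporter ferroportin, fell 3.87-fold, 3.42-fold and 3.31-fold. Clgn, a chaperone of the endoplasmic reticulum, was detected on no day 15 array and was at least 3.22-fold lower.

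Among genes that returned after a rise, Dpp4, a peptidase of epithelial and visceral endoderm surfaces, made the widest excursion. Its log2 levels were 7.98, 8.12 and 8.07 on day 4, then 11.42, 11.37 and 11.26 on day 8, then 8.06, 8.17 and 8.13 on day 15. Day 15 and day 4 overlapped and day 8 lay 3.30 above (day 15 minus day 4, 0.06 ± 0.12 SE, limma adjusted p = 0.661). Among tightly returned genes, Plekha6 (day 8 minus day 4, 1.52), Il33, a cytokine of barrier cells (1.41), Klb, the co-receptor of endocrine fibroblast growth factors (1.41), Id3, a target of bone morphogenetic proteins (1.33), Igsf11, an adhesion protein (1.33), Agrn (1.28) and Abcb4, a phospholipid exporter (1.25), followed. Their day 15 minus day 4 differences ran from -0.10 for Plekha6 to 0.21 for Agrn.

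Other genes returned after a fall. The median day 8 minus day 4 difference was -0.63 for tightly returned genes that had fallen and 0.65 for those that had risen. Map1b, a microtubule protein of growing axons, had 9.63, 9.49 and 9.83 on day 4, then 7.66, 7.93 and 7.80 on day 8, then 9.63, 10.17 and 9.13 on day 15, where the 3 arrays spread around the day 4 level. A second Map1b probe differed by -0.54 between day 15 and day 4 (adjusted p = 0.0666). Mfng, a glycosyltransferase that modifies Notch receptors (-1.73 on day 8), Trib2, a pseudokinase (-1.43), Emp1, a membrane protein of epithelia (-1.42), and Bmp4, a bone morphogenetic protein (-1.21), returned as well. Bmp4 had 7.60, 7.78 and 7.76 on day 15, against 7.53, 7.79 and 7.80 on day 4, and the 2 days overlapped. Irak3, Oas1g and Scarb2 completed the named genes, with day 8 differences of -1.13, -1.09 and -0.98.

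Crossed genes sorted by direction. Those above day 4 on day 8 and below it on day 15 were led by lipoprotein, complement and transport genes. Apom, an apolipoprotein, had 8.41, 8.61 and 7.97 on day 4, then 11.36, 10.74 and 11.33, then 6.85, 6.74 and 7.40, so that no 2 days overlapped. C2, a complement protease, ended 3.87-fold below day 4, Apoe 2.55-fold, Slc7a9, a cystine transporter, 2.54-fold, Mttp 2.27-fold and Ctsc, a lysosomal protease, 2.11-fold. Those below day 4 on day 8 and above it on day 15 were led by Nupr1, a small stress-induced chromatin protein, with 10.29, 9.89 and 9.88 on day 4, then 7.07, 6.93 and 7.41, then 12.09, 11.59 and 11.53. Calb2, a calcium-binding protein of neurons, and Prmt8, a methyltransferase of the brain, were detected on no day 8 array and ended 3.60-fold and 3.05-fold above day 4. Tgfbi, a matrix protein, ended 2.59-fold, Trib3, a pseudokinase induced by ATF4, 2.53-fold and Prl2c2, a placental hormone with near-identical copies, 2.26-fold above day 4.

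The amino acid shortage list held 5 crossed genes and 3 returned ones among 18 detected. ATF4 is the transcription factor that cells make when amino acids run short or proteins misfold. On day 15, 9 genes were higher and 5 lower than on day 4, with a median of 0.30, after a median of -0.67 for day 8 minus day 4 and 1.13 for day 15 minus day 8. The crossed genes were Nupr1, Trib3, Cebpb, Atf4 and Chac1, at 1.72, 1.34, 1.19, 0.86 and 0.41 above day 4 on day 15. Vldlr (2.92), Ddit3 (2.76), the pro-death factor CHOP, Herpud1 (1.92) and Atf3 (1.58) were higher without a dip below day 4 in the test. Ddit3 had 8.96, 8.28 and 8.62 on day 15, against 5.81, 6.24 and 5.54 on day 4. Asns, asparagine synthetase, Slc3a2 and Slc7a5, both of 1 amino acid exchanger, returned. Slc7a3 (-2.45), an arginine transporter, Shmt2 (-1.50), Phgdh (-0.80), Psat1 (-0.76) and Mthfd2 (-0.31), enzymes of serine and one-carbon metabolism apart from the first, were lower, and Sesn2 (-0.18) was not called.

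Promoters of 3 of these genes are shown because they held the C/EBP-ATF composite element, TGATGNAA on either strand, to which ATF4 binds with partners, and because Nupr1 and Trib3 crossed and Asns returned. They are RefSeq's, build GRCm38.p6, 250 bases before to 50 after the start site, 5′ to 3′ on the strand of the gene, with the element in capitals: chr7:126625421-126625720 on the minus strand for Nupr1, chr2:152344011-152344310 on the minus strand for Trib3 and chr6:7693160-7693459 on the minus strand for Asns.
Nupr1: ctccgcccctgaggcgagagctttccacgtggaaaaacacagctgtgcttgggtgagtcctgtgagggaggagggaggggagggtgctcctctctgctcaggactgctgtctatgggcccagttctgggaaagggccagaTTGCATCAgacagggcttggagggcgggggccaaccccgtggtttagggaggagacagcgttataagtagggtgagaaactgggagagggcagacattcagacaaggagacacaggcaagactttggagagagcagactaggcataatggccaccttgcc
Trib3: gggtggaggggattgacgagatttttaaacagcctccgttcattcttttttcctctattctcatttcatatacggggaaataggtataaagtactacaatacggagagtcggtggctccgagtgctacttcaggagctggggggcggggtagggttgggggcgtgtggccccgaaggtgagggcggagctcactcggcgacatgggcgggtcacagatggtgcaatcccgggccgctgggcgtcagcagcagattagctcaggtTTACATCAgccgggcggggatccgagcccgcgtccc
Asns: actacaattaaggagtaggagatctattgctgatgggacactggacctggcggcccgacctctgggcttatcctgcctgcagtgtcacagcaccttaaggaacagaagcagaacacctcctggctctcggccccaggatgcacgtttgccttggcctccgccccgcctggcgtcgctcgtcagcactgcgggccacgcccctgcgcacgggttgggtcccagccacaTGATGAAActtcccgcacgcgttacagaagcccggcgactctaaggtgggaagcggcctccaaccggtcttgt
The element stood in 7 of 18 promoters of the list (38.9%, 16 of its 18 detected genes matched), those of Asns, Atf3, Chac1, Herpud1, Nupr1, Trib3 and Vldlr, against 2.3% of promoters of detected genes and 3.97% of all promoters. Genes were put on the list as known targets of this pathway, so the share is no finding about these cells. Of the 7 genes, Nupr1, Trib3 and Chac1 crossed, Herpud1 was late, Vldlr and Atf3 were kept and Asns returned.

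Signalling lists split by pathway. Of 16 detected genes of FGF and ERK feedback 9 were lower and 4 higher, with a median of -1.29: after Fgf5 and Fgf15 came Etv5 (-2.81), an ETS factor that ERK signalling induces, and Fos (2.53), an immediate early gene, was the largest rise. All 9 lower genes were kept. Of 13 detected nodal and activin genes 6 were higher and 5 lower; the falls were ligands and their regulators (Nodal, Lefty1, Lefty2, Tdgf1 and Gdf1), and the rises were Fst (3.22), a secreted inhibitor of activin, the receptors Acvr1b (2.46) and Acvr2a (0.73), the signal carriers Smad3 (1.38) and Smad2 (0.80), and Fstl1 (0.95). Of 21 detected WNT genes 13 were higher and 5 lower, led by Frzb, a secreted WNT inhibitor, at least 8.06-fold, and Sp5, a WNT target, at least 4.99-fold, both undetected on day 4; Notum, another WNT inhibitor, was at least 4.89-fold lower and undetected on day 15. Of the 12 WNT genes detected in full on both days 6 were higher and 3 lower. Of 14 detected BMP genes 9 were higher and 1 lower, with Bmper (3.37) and Id4 (2.25) in front, and 3, Bmp4, Id3 and Msx2, returned. Of 13 detected hedgehog and notch genes 6 were higher and 2 lower. Of the 9 BMP genes detected in full on both days 6 were higher and 0 lower. For hedgehog and notch, 3 of 10 such genes were higher and 2 lower. The share called was 81.2% for FGF and ERK, 84.6% for nodal and activin, 85.7% for WNT, 71.4% for BMP and 61.5% for hedgehog and notch. Over all detected genes it was 64.6%.

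Markers of other cell types moved in part. Of 17 detected endothelial genes 6 were higher and 9 lower, with a median of -0.62. Of the 17, 3 were detected in full on day 15 only and 5 on day 4 only. Of the 9 detected in full on both days 4 were higher and 4 lower. Flt1 and Cdh5 (4.04), the cadherin of vessel junctions, stood against Robo4 (-3.38), a guidance receptor of vessels, and Mmrn2 (-2.42), a matrix protein of vessels. Cdh5 was detected on 2 of 3 day 4 arrays, and Kdr was undetected. Of 5 detected blood genes 1 was higher and 3 lower, and Laptm5, a lysosomal protein of blood cells, had 7.03, 7.31 and 8.03 on day 15, against 10.56, 10.56 and 10.55 on day 4. Of 5 detected kidney and urogenital genes 4 were lower, with Wt1, a zinc finger factor of kidney and gonad, 8.63-fold lower. Of 7 detected neural progenitor genes 5 were higher and 0 lower (also 5 and 0 at an unadjusted limma p under 0.05), 4 of the 7 being detected in full on day 15 only, with Zic1 at least 11.6-fold and Irx3 at least 11.03-fold higher. The array held 23 genes of that list, and Sox1, Pax6, Hes5, Fabp7 and Olig2 were detected on no array of day 15 or day 4. Of 6 detected neural crest and glia genes 5 were higher and 0 lower (5 and 1 at an unadjusted limma p under 0.05), but 4 of the 6 were detected in full on day 15 only, and of the 2 detected in full on both days 1 was higher. Ednrb (2.63), the endothelin receptor, led. Among the 16 genes of that list on the array, Foxd3, Ngfr, Erbb3, S100b and Gfap were detected on no array of day 15 or day 4. Of 18 detected simple epithelium genes 6 were higher, 3 lower and 9 not called, with a median of 0.05, and the share of higher genes was near the 32.2% of all detected genes. The higher genes had Krt7, Krt19 (3.39), Krt8 (2.65) and Krt18 (1.87) in front. The part of any of these cells in the results above was not tested.

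**Figure D5:**
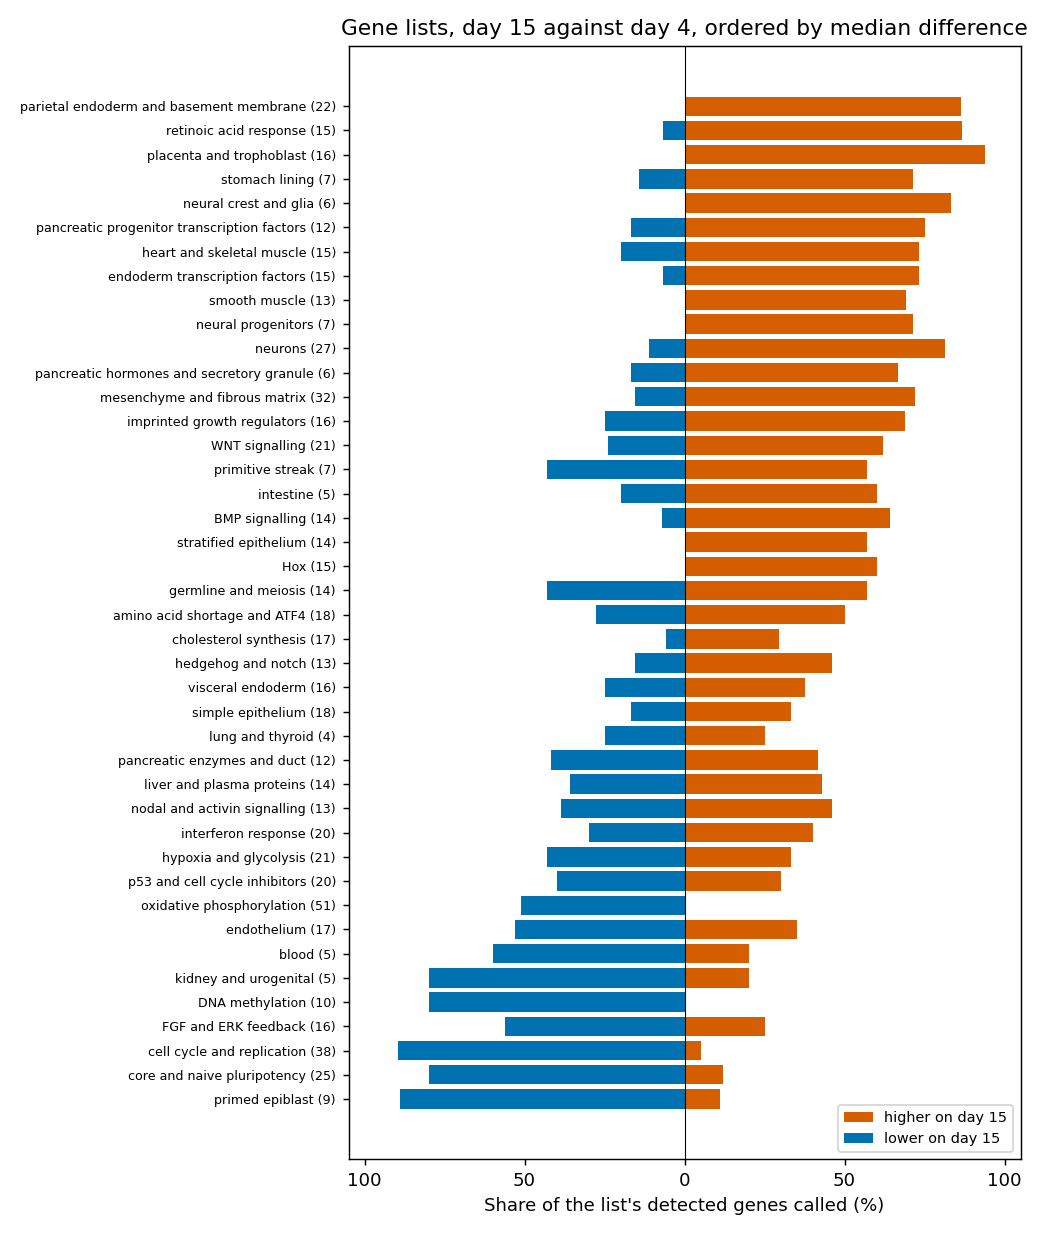
Share of each list's detected genes (number in brackets) that were called higher (orange, right) or lower (blue, left) on day 15 than on day 4, ordered by the median log2 difference. Parietal endoderm (19 of 22 higher), retinoic acid (13 of 15) and placenta (15 of 16) stand at the top, and primed epiblast (8 of 9 lower), pluripotency (20 of 25) and cell cycle (34 of 38) at the bottom.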

How the data were processed

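RNA from 12 samples of W9.5 cells was hybridised to Illumina BeadChip arrays. The deposited scanner table gives, per the file headers, a mean intensity and a detection p-value for each of 24613 probes on each array, before normalization. The deposited log2 value table of the same arrays is the authors' own, and no source used here states its normalization. Background correction and quantile normalization of the intensities used neqc of limma (limma 3.58.1, R 4.3.3, offset 16). Probes with detection p under 0.05 on at least 3 of 12 arrays and 1 gene name were kept, the brightest probe standing for its gene, which gave 9657 genes. Each gene was fitted with 1 mean per day over 4 days by lmFit and eBayes (trend), and p-values were adjusted by Benjamini-Hochberg over all 9657 genes, so every adjusted p is limma's. The members and the gene lists were chosen with earlier results of these data known.

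Genes were named by rule: the 15 largest rises and falls whose arrays did not overlap, 8 tightly returned genes and 8 late genes in each direction, 6 crossed genes in each direction, and the 4 largest changes of each list or a list in full. Genes named beyond that were chosen after their values were seen. For a gene undetected on all 3 arrays of a day, "at least" sets the brighter mean against the higher, on each array, of the dimmest detected signal and the probe's own. The number of arrays limits the precision. On data simulated for day 15 against day 4 over 9657 genes, changes of 0.5, 1 and 2 log2 units were called in 35.8%, 86.6% and 100% of 67, 67 and 66 genes, and 5.13% of calls were false. Every other simulated gene had no change, whereas 60.7% of tested genes were called in the data. The p-value adjustment depends on the share of changed genes, so these percentages need not hold for the data. Promoters came from RefSeq tables (GRCm38.p6) and were searched on both strands. Same-numbered day 15 and day 8 arrays deviated together (correlations 0.440, 0.336 and 0.339), a pairing taken from the data and not from the labels; the replicate block is reported where it changed a call. Other normalizations, filters, probe choices, the authors' log2 table, a replicate block and leaving out each array were tried.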

Additional observations from a re-analysis of the deposited data

Results flagged for a closer look

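Signal outside the named genes was measured in 2 places. Of 1634 detected probes that carry no gene name, or more than 1, 866 were called between day 15 and day 4 (376 higher, 490 lower), and 54 were higher and 22 lower by at least 4-fold; these probes enter no gene count above. Among the 761 tested genes that the detection rule leaves out, 110 were called higher on day 8 than on day 4, and 80 of those were detected on all 3 day 8 arrays. A rise limited to day 8 can therefore fall outside the 8896 genes described. No explanation was tested for either count.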

How the results depend on the processing

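The count of called genes was between 5335 and 5707 when 1 array was left out and between 5425 and 6230 under the other alternatives, against 5743. By the authors' log2 values, 1617 genes changed at least 2-fold and 670 were lower, against 2533 and 1144; the cause was not tested. Leaving out 1 array put genes called on day 8 with no later call between 180 and 342 (higher) and between 122 and 263 (lower), and genes that crossed from below between 43 and 76; the first was highest without day 15 replicate 1 and the second without day 15 replicate 2, each of which raised both, and the last was lowest without day 4 replicate 2. With replicate number as a block, 6230 genes were called. Same-numbered day 15 and day 4 arrays had deviations correlated by 0.437, -0.053 and -0.027, which does not settle whether the numbers pair those samples. The values were 0.354, 0.064 and 0.198 for day 8 with day 4. The block moved no count of a course class by over 1.5 times. Of 201 named genes, 198 stayed on their side of the threshold in every alternative run; Muc13, Srebf2 and Klf1 did not. The median of all detected genes was -0.06, and -0.01 under median scaling. Other probes of a gene were called the opposite way for 43 of 2130 probes. The number of arrays, 3 a day, and signals near background limit the precision of small changes and of dim genes.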

Other observations

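Of all detected genes 32.2% were higher and 32.4% lower on day 15 than on day 4. Of 21 detected hypoxia and glycolysis genes 7 were higher and 9 lower: P4ha2 (3.46) and P4ha1 (2.11), which hydroxylate collagen, rose, and Pfkp (-2.69), a phosphofructokinase, and Pdk1 (-1.83), which holds pyruvate back from mitochondria, fell. Of 17 detected cholesterol synthesis genes 13 had been higher on day 8, and on day 15 5 were higher, 1 was lower and 5 had returned to day 4 within 0.5 log2 units. Insig1, a feedback regulator of that pathway, had 7.26, 8.17 and 7.57 on day 15, against 5.04, 4.91 and 5.66 on day 4, where 1 of 3 arrays detected it.

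Of 20 detected interferon and antigen presentation genes 8 were higher and 6 lower, and of the 15 detected in full on both days 4 were higher and 5 lower. Isg20, an exonuclease that interferon induces, was at least 9.38-fold higher, while Irf1, a transcription factor of that response, fell by 2.74 on the log2 scale and Psmb10, an immunoproteasome subunit, by 2.96. Of 14 detected germline genes 8 were higher and 6 lower, and of the 9 detected in full on both days 4 were higher and 5 lower. The list was led by Kit, the receptor of stem cell factor, 4.05 higher, while Piwil2, a piRNA-binding protein, fell by 2.39. Of 16 detected imprinted genes 11 were higher and 4 lower, with Dlk1 (4.83), Igf2 (3.64) and Cdkn1c (3.42) in front. Of 7 detected primitive streak genes 4 were higher and 3 lower, and Eomes, a T-box factor of that tissue, fell by 3.26 in 2 steps.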
